A study of Mus musculus with 15 samples.

Results

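Fos, Fosb, Fosl1, Fosl2, Jun, Junb, Jund, Egr1, Atf3 and Ier3 were followed as a set of 10 immediate early genes, named by symbol from the deposited count table of 24421 genes. All 10 were listed and all 10 had enough counts to be tested, in a table where 13912 genes did. The libraries came from primary proximal tubule cells, the kidney epithelium that reclaims most of the filtered load, of C57BL/6 mice, passaged once in culture before RNA isolation. The groups were female Diet1 knockout (KO, Diet1-/-, n = 4 libraries), female wild type (WT, Diet1+/+, n = 4), male KO (n = 3) and male WT (n = 4). Diet1 is known from mouse work on bile acid metabolism, and the gene itself was not analysed here. No age, treatment or allele design is given in the sources used here. Per the labels, the cells of 3 to 4 mice were pooled for a group and split into technical replicates, so each group is 1 pool, and p-values measure the spread between splits of a pool and not between mice.

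Library totals ran from 17648416 to 30896637 counts. Levels are given as CPM (counts per 1000000 counts). The lowest correlation between libraries within a group was 0.994 on the log2 scale, and the highest between groups was 0.993. Of 15 proximal tubule markers 9 could be tested, with 0 higher and 2 lower in female KO and 2 higher and 2 lower in male KO. They summed to 0.0139% to 0.0156% of counts in female KO and 0.0189% to 0.0209% in female WT, and to 0.0160% to 0.0166% in male KO and 0.0161% to 0.0172% in male WT. The phosphate transporter gene Slc34a1 and the anion transporter genes Slc22a6 and Slc22a8 had no count in at least 1 group each.

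Markers of other cell types also moved between KO and WT. Across all genes, 20.7% were called higher and 18.6% lower in female KO, and 10.1% higher and 10.1% lower in male KO (edgeR). Fibroblast markers had 2 of 8 tested genes higher and 5 lower in female KO, and 0 higher and 6 lower in male KO. They summed to 0.252% to 0.272% of counts in female KO and 0.361% to 0.389% in female WT, and to 0.178% to 0.198% in male KO and 0.342% to 0.367% in male WT. Smooth muscle and pericyte markers had 2 of 9 higher and 4 lower in female KO, and 0 higher and 8 lower in male KO, with sums of 0.358% to 0.416% in female KO, 0.374% to 0.378% in female WT, 0.280% to 0.288% in male KO and 0.337% to 0.370% in male WT. Endothelial markers had 4 of 10 higher and 0 lower in female KO, and 0 higher and 9 lower in male KO, with sums of 0.00486% to 0.00629% in female KO, 0.00439% to 0.00514% in female WT, 0.00496% to 0.00564% in male KO and 0.0109% to 0.0122% in male WT. Podocyte markers had 3 of 8 higher and 2 lower in female KO, and 0 higher and 3 lower in male KO, with sums of 0.0342% to 0.0377% in female KO, 0.0340% to 0.0358% in female WT, 0.0427% to 0.0471% in male KO and 0.0512% to 0.0541% in male WT. Distal nephron markers had 0 of 6 higher and 4 lower in female KO, and 0 higher and 1 lower in male KO, with sums of 0.000402% to 0.000731% in female KO, 0.00188% to 0.00208% in female WT, 0.000671% to 0.000848% in male KO and 0.00104% to 0.00131% in male WT. The parvalbumin gene Pvalb of this list had no count in any group. Leukocyte markers had 5 of 10 higher and 0 lower in each sex, with sums of 0.00579% to 0.00709% in female KO, 0.00459% to 0.00543% in female WT, 0.00443% to 0.00448% in male KO and 0.00298% to 0.00351% in male WT, and the T cell gene Cd3e had no count in female KO. For the lists with a count of 0, unadjusted p below 0.05 and DESeq2 and limma-voom also gave 0 in those directions. The part of these markers in the results below was not tested. In bulk RNA, fewer cells of a type and less RNA per cell cannot be told apart.

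Immediate early genes are transcribed within minutes of a growth factor, cytokine, stretch or stress signal, without need for new protein. Fos and Jun family proteins pair through leucine zippers to form the transcription factor AP-1, Egr1 is a zinc finger factor induced through the same kinase cascades, Atf3 is a stress-induced zipper protein related to CREB, and Ier3 encodes a short-lived regulator of cell survival. In tubule cells these genes are known for their rapid rise after injury, and also for their rise when tissue is dissociated or cultures are handled.

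Promoter sequence is shown for the 5 genes with a searched promoter that rose in female KO cells (Fosb, Jun, Junb, Atf3 and Ier3). It is also shown for Fos, which did not pass the test, as a base for comparison. RefSeq promoters on GRCm38.p6 were searched for 8 of the 10 genes. Fosl1 had no promoter entry, and Egr1 was left out of the search. Both genes rose in female KO cells and are missing here. The 250 bases before the start were searched on both strands for the cyclic AMP response element (CRE) TGACGTCA, its 5-base core TGACG, which lies within it, the AP-1 site TGAGTCA, the EGR site GCGNGGGCG, the TATA box TATAAA and the CArG box bound by serum response factor. The core was added after the sequences were seen. Each is written 5' to 3' on the strand of the gene, with matches in capitals. Their windows are chr12:85473640-85473889 (plus strand), chr7:19310046-19310295 (minus strand), chr4:95052223-95052472 (minus strand), chr8:84978749-84978998 (minus strand), chr1:191183334-191183583 (minus strand) and chr17:35821463-35821712 (plus strand).
Fos: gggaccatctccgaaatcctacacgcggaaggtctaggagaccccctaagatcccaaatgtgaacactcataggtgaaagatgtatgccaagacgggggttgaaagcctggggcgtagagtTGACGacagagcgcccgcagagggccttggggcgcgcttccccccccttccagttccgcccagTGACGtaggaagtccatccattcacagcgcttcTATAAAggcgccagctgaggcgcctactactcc
Fosb: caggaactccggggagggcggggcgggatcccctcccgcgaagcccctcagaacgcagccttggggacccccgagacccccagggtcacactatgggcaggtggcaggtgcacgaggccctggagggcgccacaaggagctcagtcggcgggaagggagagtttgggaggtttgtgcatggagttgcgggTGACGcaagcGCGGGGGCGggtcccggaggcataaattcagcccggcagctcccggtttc
Jun: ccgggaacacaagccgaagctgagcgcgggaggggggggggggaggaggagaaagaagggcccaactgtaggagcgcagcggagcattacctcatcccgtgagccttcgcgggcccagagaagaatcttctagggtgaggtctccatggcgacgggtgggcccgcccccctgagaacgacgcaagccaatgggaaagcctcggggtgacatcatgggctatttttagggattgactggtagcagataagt
Junb: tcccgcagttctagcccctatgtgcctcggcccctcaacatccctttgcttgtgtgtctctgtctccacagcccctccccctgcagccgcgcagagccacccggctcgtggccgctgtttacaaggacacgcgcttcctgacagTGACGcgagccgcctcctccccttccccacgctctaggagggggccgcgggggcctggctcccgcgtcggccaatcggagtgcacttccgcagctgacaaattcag
Atf3: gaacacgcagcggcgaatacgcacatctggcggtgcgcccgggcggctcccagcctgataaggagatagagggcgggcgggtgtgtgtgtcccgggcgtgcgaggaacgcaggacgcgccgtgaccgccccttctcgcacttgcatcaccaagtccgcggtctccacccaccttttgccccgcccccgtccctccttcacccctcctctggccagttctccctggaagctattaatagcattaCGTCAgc
Ier3: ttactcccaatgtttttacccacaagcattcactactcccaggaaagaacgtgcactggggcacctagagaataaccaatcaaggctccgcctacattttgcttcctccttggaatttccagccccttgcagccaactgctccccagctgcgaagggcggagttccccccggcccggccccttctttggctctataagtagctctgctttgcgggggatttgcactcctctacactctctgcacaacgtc

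Fos held the core at -129 to -125 and at -66 to -62 and a TATA box at -33 to -28, counted from the RefSeq start. Fosb held the core at -60 to -56 and an EGR site at -50 to -42. Junb held the core at -106 to -102, Atf3 held it on the other strand at -7 to -3, and Jun and Ier3 matched none of the motifs. Of the searched promoters not shown, that of Fosl2 held an EGR site at -79 to -71 and the Jund window matched none, so the core was in 4 of the 8 windows. The Jund window (chr8:70697489-70697738, plus strand) ends well upstream of the GENCODE start of the gene at 70698949. It therefore does not describe the 250 bases before that start. The Atf3 window lies inside the GENCODE gene, which starts on the minus strand at 191218039. The Fosl2 window (chr5:32136222-32136471, plus strand) also lies inside its gene, which starts at 32135801. The Ier3 and Fosb windows run past the GENCODE starts at 35821684 and 19310051. The positions of matches are thus not positions from the GENCODE start in these genes. Among 32851 RefSeq promoters of the same length, 17.8% held the core, 1.55% the full CRE, 4.46% the AP-1 site, 4.7% the EGR site, 12.4% TATAAA and 1.47% a CArG box. The windows of these 6 genes were 54.4% to 68.8% G and C, against a median of 52.4% over all promoters. A match is a description of the letters and no evidence of binding. Only full matches to these patterns within the 250 bases were counted, so near matches and sites elsewhere were missed. The Jun window, for example, holds tgacatca, which is close to the CRE TGACGTCA.

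In GRCm38 (GENCODE M21), Fos lies on chromosome 12 from 85473890 to 85477273, Fosb on chromosome 7 from 19302696 to 19310051 and Fosl2 on chromosome 5 from 32135801 to 32157842. Jun, a gene of 1 exon, lies on chromosome 4 from 95049034 to 95052222, and Junb and Jund lie on chromosome 8, from 84974484 to 84978718 and from 70698949 to 70700616. Atf3 lies on chromosome 1 from 191170296 to 191218039, and Ier3 on chromosome 17 from 35821684 to 35822923. Junb shares 173 exonic bases with Prdx2 on the other strand, which was not called in either sex (log2 fold change 0.04 in female KO and 0.05 in male KO, edgeR adjusted p = 0.291 and 0.270). Jun shares 232 exonic bases with Junos and Jund 877 with Gm11175, and neither of these is a row of the count table used here.

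The levels spanned a wide range once divided by transcript length (GENCODE M21 merged exons). In female KO, Ier3 stood at 225.6 ± 5.97 CPM per kb, Junb at 178.5 ± 12.7 and Jund at 140.1 ± 21.7 CPM per kb (SD, n = 4). Jun, Fosl2 and Egr1 followed at 37.7, 28.7 and 21.7 CPM per kb, and Fosl1, Atf3, Fos and Fosb at 8.82, 6.72, 3.65 and 1.31 CPM per kb. In female WT, Jund led at 169 ± 8.18 CPM per kb, with Junb at 158 ± 3.29 and Ier3 at 155 ± 5.78 CPM per kb. Fos and Fosb, the members best known as short-lived transcripts of acute induction, were thus the lowest of the 10 per length in both of these groups.

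**Figure D1:**
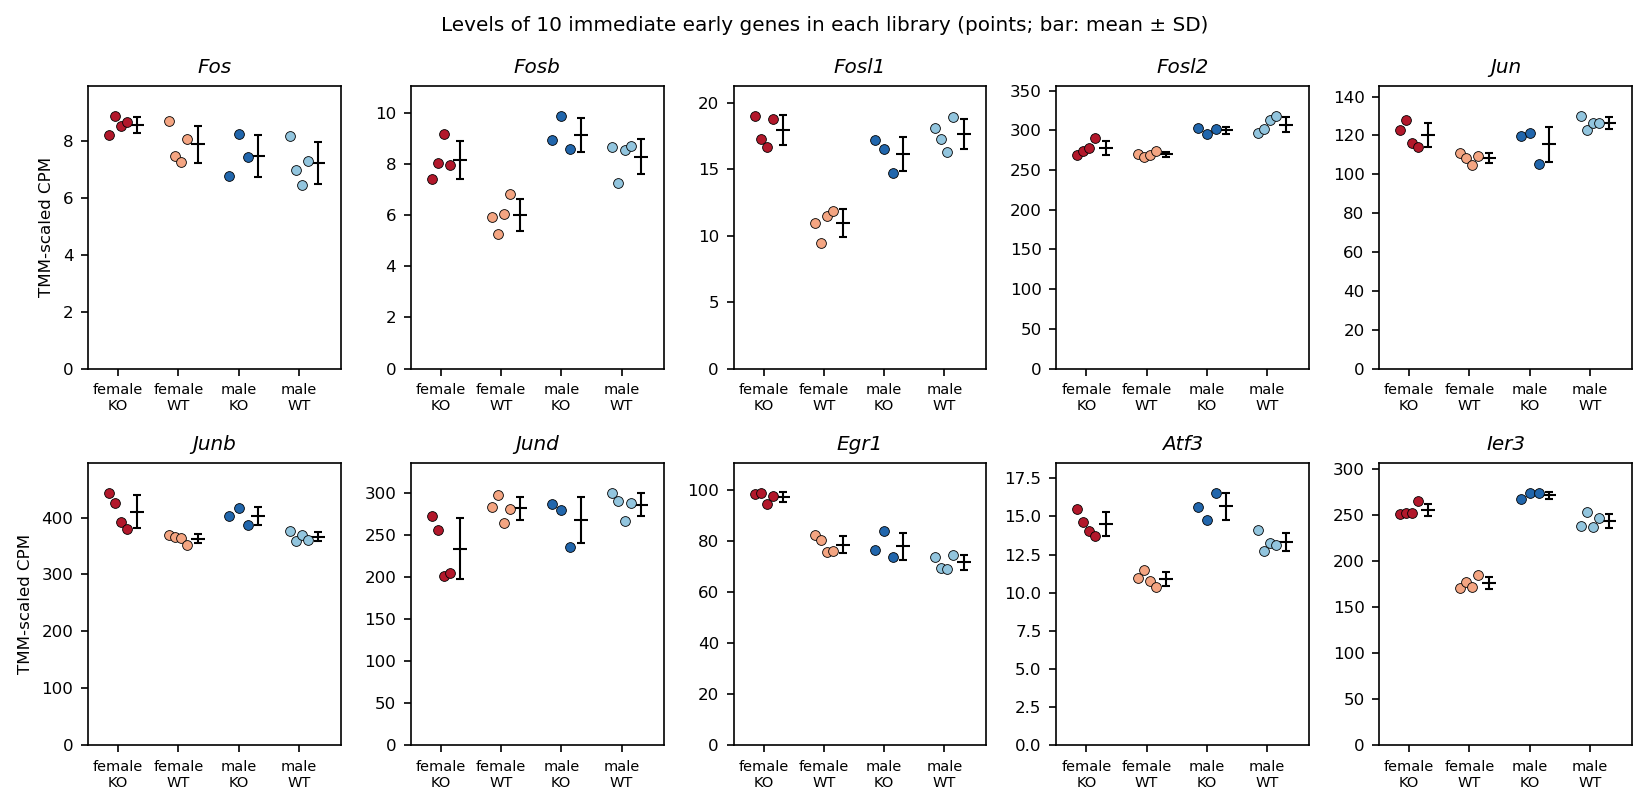
Level of each gene in every library, in CPM scaled by TMM (y axis, from 0), for female KO, female WT, male KO and male WT (x axis); points are libraries and bars are mean ± SD. The 4 female WT libraries of Fosl1 (9.47 to 11.9 CPM) and of Ier3 (170 to 184 CPM) lie below every library of the other groups.

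The first question was whether these genes differed between KO and WT cells of female mice. Of the 10 genes, 7 rose in female KO and 0 fell (p below 0.05 in the quasi-likelihood test of edgeR, adjusted over all genes by Benjamini and Hochberg). Across all genes 39.3% changed, 20.7% upwards and 18.6% downwards. At an unadjusted p below 0.05, 1 gene of the 10 was lower, and DESeq2 and limma-voom also called 1, Jund in each case. The median log2 fold change of the 10 was 0.24, against 0.000143 over all genes.

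Among the Fos family, Fosl1, which encodes a Fos relative without the strong activation domain of Fos, had the largest change. It lay at 19.0, 17.3, 16.7 and 18.8 CPM in female KO libraries, against 10.996, 9.47, 11.5 and 11.9 CPM in female WT libraries. The groups did not overlap, and Fosl1 rose 1.63-fold (log2 fold change 0.70 ± 0.076 (SE), edgeR adjusted p = 3.24e-09). Its change was larger in size than that of 94.3% of genes tested. On chromosome 19 (GRCm38, 5447547 to 5455946), 1163 of its 2033 exonic bases are shared with Ccdc85b on the other strand, and the strand setting of the counting is not given in the sources used here. Ccdc85b averaged 22.3 ± 3.91 CPM in female KO and 22.4 ± 0.591 CPM in female WT (n = 4 each) and was not called (log2 fold change -0.01, edgeR adjusted p = 0.939).

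Fosb, the second Fos family gene to rise, had 7.42, 8.04, 9.19 and 7.96 CPM in female KO libraries, against 5.93, 5.27, 6.05 and 6.82 CPM in female WT libraries. Every KO library was above every WT library (log2 fold change 0.43 ± 0.098, edgeR adjusted p = 6.06e-04). Fos itself ranged from 8.22 to 8.88 CPM in female KO and from 7.27 to 8.72 CPM in female WT. These ranges overlapped, and the log2 fold change of 0.12 had a 95% interval from -0.07 to 0.31 (edgeR adjusted p = 0.314). Fosl2, the most abundant Fos family transcript per length, ranged from 269 to 290 CPM in female KO and from 267 to 274 CPM in female WT, with an interval from -0.01 to 0.10.

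The Jun genes went different ways. Jun, the founding partner of Fos, lay at 123, 128, 116 and 114 CPM in female KO libraries, against 111, 108, 105 and 109 CPM in female WT libraries. It rose by 11% with no overlap between the groups (log2 fold change 0.15 ± 0.040, edgeR adjusted p = 0.00287). Junb, a weaker activator that can restrain Jun, had 444, 426, 393 and 380 CPM in female KO, against 370, 365, 365 and 352 CPM in female WT (log2 fold change 0.18 ± 0.037, edgeR adjusted p = 3.51e-04). Jund, the Jun family gene that is expressed steadily in resting cells, stood at 273, 256, 201 and 205 CPM in female KO, against 284, 297, 264 and 281 CPM in female WT. KO libraries 2, 3 and 4 were below all WT libraries, and KO library 1 lay within the WT range. Jund fell short of the threshold (log2 fold change -0.27 ± 0.10, edgeR adjusted p = 0.0504) and passed it with DESeq2 (adjusted p = 0.0207) and with limma-voom (adjusted p = 0.00201). It also passed in edgeR without female KO library 1 (adjusted p = 0.0113), without female KO library 2 (0.0387) or without male KO library 3 (0.0416), which enters through the shared estimate of spread.

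Outside AP-1, the zinc finger gene Egr1 had 98.2, 98.9, 94.5 and 97.7 CPM in female KO libraries, against 82.2, 80.3, 75.8 and 76.0 CPM in female WT libraries. All KO libraries were higher, by a log2 fold change of 0.31 ± 0.039 (edgeR adjusted p = 5.90e-08). Atf3, the stress-induced zipper gene, lay at 15.5, 14.6, 14.0 and 13.7 CPM in female KO and at 10.9, 11.5, 10.7 and 10.4 CPM in female WT (log2 fold change 0.41 ± 0.071, edgeR adjusted p = 1.71e-05). Ier3 had 251, 252, 252 and 265 CPM in female KO, against 170, 177, 171 and 184 CPM in female WT, a 1.45-fold rise (log2 fold change 0.54 ± 0.030, edgeR adjusted p = 3.12e-16). In all, 7 of the 10 genes had all female KO libraries above all female WT libraries, and 0 had them all below. For all genes these shares were 19.4% and 16.7%, or 36.1% in either direction.

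The same comparison in male cells gave smaller changes. Of the 10 genes, 4 rose in male KO (Junb, Egr1, Atf3 and Ier3) and 1 fell (Jun), where 10.1% of all genes rose and 10.1% fell, 20.2% in all (edgeR, adjusted p below 0.05). The median log2 fold change was 0.08, against 0.000207 over all genes. Ier3 had 267, 273 and 274 CPM in male KO libraries, against 238, 253, 236 and 246 CPM in male WT libraries, a rise of 11.6% (log2 fold change 0.16 ± 0.032, edgeR adjusted p = 3.02e-04). Its groups did not overlap.

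Atf3 lay at 15.7, 14.8 and 16.6 CPM in male KO, against 14.1, 12.7, 13.2 and 13.1 CPM in male WT. Again all KO libraries were higher (log2 fold change 0.23 ± 0.073, edgeR adjusted p = 0.0207), but the adjusted p was 0.0509 without male KO library 1 and 0.146 without male KO library 3. Junb had 403, 418 and 386 CPM in male KO, against 377, 359, 369 and 361 CPM in male WT (log2 fold change 0.13 ± 0.039, edgeR adjusted p = 0.0162). This rise missed the threshold without male KO library 2 (edgeR adjusted p = 0.0990). Egr1 stood at 76.6, 83.8 and 73.5 CPM in male KO and 73.8, 69.5, 68.9 and 74.4 CPM in male WT. The groups overlapped, and the call (log2 fold change 0.12 ± 0.043, edgeR adjusted p = 0.0430) was lost with DESeq2 (adjusted p = 0.0618), with limma-voom (adjusted p = 0.0593), and without male WT library 2 or 3 or male KO library 1 or 2. Without male KO library 2 the log2 fold change of Egr1 was 0.07.

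Jun had 119, 121 and 105 CPM in male KO libraries, against 130, 123, 127 and 126 CPM in male WT libraries. It fell by 0.13 ± 0.042 on the log2 scale (edgeR adjusted p = 0.0217) with no overlap between the groups. Male KO library 3 was the lowest, and without it the log2 fold change was -0.07 and the adjusted p 0.293. Between KO and WT, 3 of the 10 genes had all male KO libraries higher and 1 had all of them lower, where 13.9% and 13.7% of all genes did, 27.6% in all. The other 5 genes did not pass: Fos, Fosb, Fosl1, Fosl2 and Jund had log2 fold changes of 0.04, 0.13, -0.13, -0.03 and -0.10. For Fosl1 the 95% interval ran from -0.29 to 0.03, and for Fosb from -0.07 to 0.33. Jund had 286, 280 and 236 CPM in male KO, against 300, 290, 266 and 288 CPM in male WT.

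**Figure D2:**
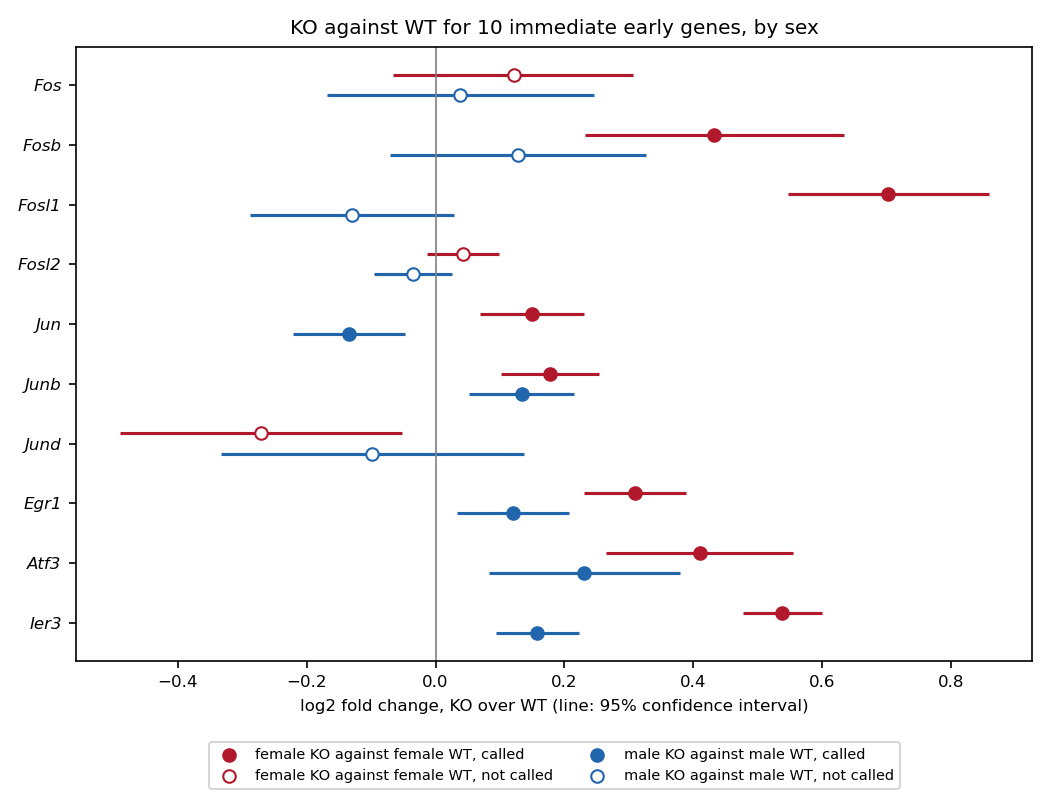
Log2 fold change of KO over WT (x axis) for each of the 10 genes (y axis), for female cells above and male cells below in each row; lines are 95% confidence intervals and filled points passed an edgeR adjusted p of 0.05. Fosl1 lies at 0.70 in female cells and -0.13 in male cells, and Jun at 0.15 and -0.13.

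The female and male effects were then set against each other in an interaction term (female effect minus male effect). The effects of 4 genes differed, all with a more positive effect in female cells, against 9.76% of all genes, and 0 genes differed the other way, against 5.89% of all genes (15.6% in either direction). At an unadjusted p below 0.05, 5 were more positive and 0 more negative, and DESeq2 and limma-voom also called 4 and 0. Fosl1 differed most, by 0.83 ± 0.11 on the log2 scale (edgeR adjusted p = 6.56e-07), followed by Ier3, at 0.38 ± 0.044 (edgeR adjusted p = 6.11e-08). Jun rose in female KO and fell in male KO, a difference of 0.28 ± 0.058 (edgeR adjusted p = 5.55e-04). The difference for Egr1 was 0.19 ± 0.058 (edgeR adjusted p = 0.0207), but it missed the threshold with library size as the only scaling (adjusted p = 0.0725) and without any of 6 single libraries. These were male WT 4, male KO 1 and 3, female WT 3 and 4, and female KO 2, with edgeR adjusted p between 0.0501 and 0.107. For Fosb, Atf3 and Junb the differences were 0.30, 0.18 and 0.04, with 95% intervals from 0.02 to 0.59, from -0.03 to 0.39 and from -0.07 to 0.15, and edgeR adjusted p = 0.147, 0.266 and 0.666.

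Across the 4 groups, female WT had the lowest mean of Fosb, Fosl1, Fosl2, Jun, Junb, Atf3 and Ier3. Between the WT groups, 6 of the 10 genes were lower in female WT than in male WT (Fosb, Fosl1, Fosl2, Jun, Atf3 and Ier3) and Egr1 was higher, against 16% of all genes lower and 12.6% higher, 28.6% in all (edgeR, adjusted p below 0.05). Fosl1 averaged 10.96 ± 1.056 CPM in female WT and 17.7 ± 1.13 CPM in male WT (log2 fold change -0.68 ± 0.076, edgeR adjusted p = 8.61e-09). Ier3 averaged 176 ± 6.54 CPM in female WT and 243 ± 7.68 CPM in male WT (log2 fold change -0.47 ± 0.030, edgeR adjusted p = 1.84e-14). The call of Egr1 between the WT groups was lost without female WT library 1 (edgeR adjusted p = 0.0594). Between the KO groups, Egr1 was higher and Fosl2 lower in female KO, against 4.94% and 4.26% of all genes, 9.2% in all. Egr1 averaged 97.3 ± 1.97 CPM in female KO and 78.0 ± 5.29 CPM in male KO (edgeR adjusted p = 1.10e-06). The call of Fosl2 was lost without male KO library 1 or 3 (edgeR adjusted p = 0.0766 and 0.0583). Fosl1, at 17.9 ± 1.13 CPM in female KO and 16.1 ± 1.28 CPM in male KO, was not called there (edgeR adjusted p = 0.277), nor was Ier3, at 255 ± 6.75 and 271 ± 3.91 CPM (edgeR adjusted p = 0.0794). The Ier3 libraries of these groups did not overlap, and Ier3 was called lower in female KO with library size as the only scaling (adjusted p = 0.0305), without male WT library 1 (0.0473) or without female KO library 4 (0.0354). These comparisons use the same libraries as those of KO against WT and are no separate evidence.

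Libraries of 1 group also varied in these genes. Jund had the largest biological coefficient of variation of the 10, 9.7%, against a median of 4.18% over all genes, while Fosl2 and Ier3 had 2.86% and 3%. Over 15 libraries, the deviations from the group means in log2 CPM correlated at a Pearson r of 0.83 for Junb with Jund, 0.79 for Jun with Jund and 0.65 for Fos with Egr1. Fosl2 went against Junb at an r of -0.71, and the median over the 45 pairs was 0.11. The libraries are splits of 4 pools and share depth and handling within a library, so these values are descriptions. Summed counts of 73 ribosomal protein genes, a list added after the data were seen, moved with some of these deviations, at an r of 0.74 for Junb, 0.66 for Jund, 0.62 for Atf3 and -0.87 for Fosl2. That sum was 2.11 ± 0.0950% of counts in female KO and 1.95 ± 0.0380% in female WT, and 2.09 ± 0.0385% in male KO and 1.89 ± 0.0904% in male WT. Its part in the changes of Junb, Jund and Atf3 was not tested.

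**Figure D3:**
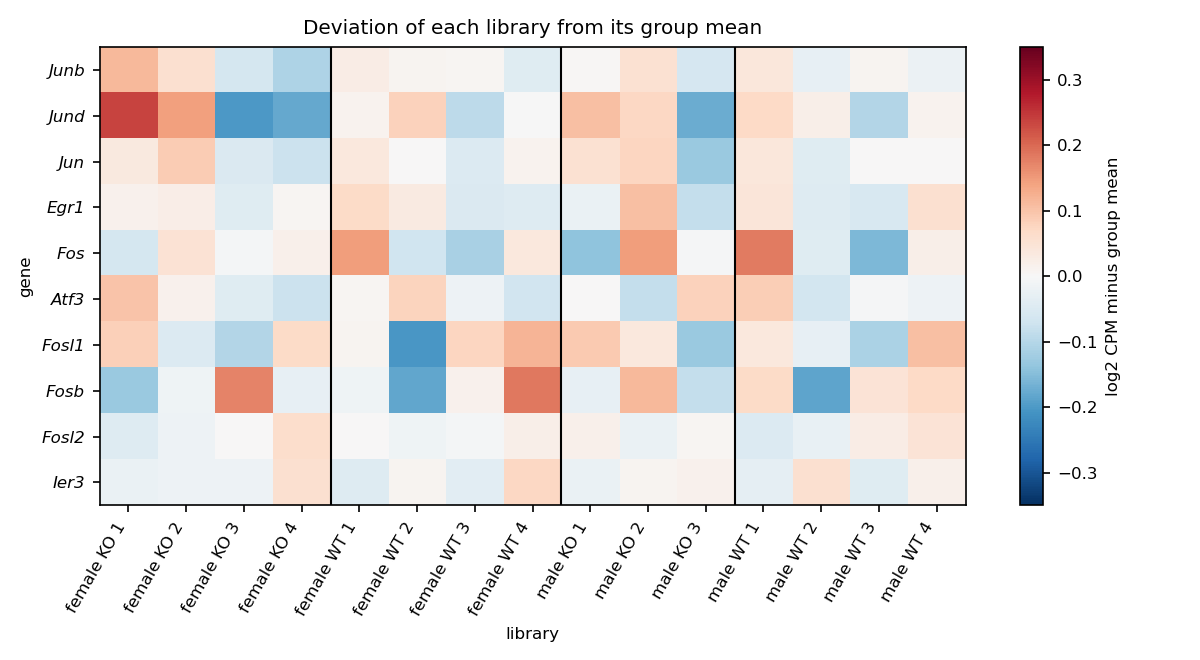
Deviation of log2 CPM from the mean of its group (colour) for each gene (rows) in each of 15 libraries (columns, groups divided by lines). Jund is above its mean in female KO libraries 1 and 2 and below it in 3 and 4, and Junb and Jun share these signs.

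Genes with the most similar pattern were sought among 10300 genes of at least 5 CPM, by the root mean square difference of centred log2 CPM over the 15 libraries. Closest to Fosl1 were Vegfc, a lymphatic growth factor, and Ehd2, a caveolar protein, at 0.11 and 0.12. Closest to Ier3 was the unconventional myosin gene Myo10 (0.04), and closest to Egr1 were Timp2, a protease inhibitor (0.06), and Dusp1, itself an immediate early phosphatase (0.07). Atf3 was most like Odc1, of polyamine synthesis, and Sfn, an epithelial 14-3-3 protein (0.05 each). Junb was most like the ribosomal protein genes Rps13 and Rps24 (0.04 each), Jund like Pdf and Cox5a, Jun like Dmwd and P4hb, Fosl2 like Glce and Luzp1, Fosb like Clic4 and Mcm4, and Fos like Mettl22 and Snhg6, with differences between 0.03 and 0.11. The SD of the gene itself over the 15 libraries was 0.14 for Fos and 0.09 for Fosl2, against 0.255 for Ier3 and 0.32 for Fosl1. A small difference is thus a weaker match where the gene itself varied little.

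Beyond these 10 genes, 33 of 34 other listed immediate early genes could be tested. In female KO, 20 of them rose and 3 fell, with a median log2 fold change of 0.28, and in male KO 11 rose and 3 fell, with a median of 0.04 (edgeR, adjusted p below 0.05). As shares these were 60.6% and 9.09% in female KO, where 20.7% of all genes rose and 18.6% fell, and 33.3% and 9.09% in male KO, where 10.1% rose and 10.1% fell. The share that fell in male KO was near that of all genes. The largest rises in female KO were in Ptgs2, the inducible prostaglandin synthase, at 246 ± 9.02 CPM in female KO and 128 ± 13.9 CPM in female WT (log2 fold change 0.94 ± 0.084), and in Phlda1 (0.82 ± 0.056). Klf4 and Egr2, the zinc finger relative of Egr1, fell by 0.24 ± 0.078 and 0.20 ± 0.067. In male KO the polo-like kinase gene Plk2 (0.31 ± 0.027) and the phosphatase gene Dusp5 (0.28 ± 0.048) rose most. Egr2 averaged 14.3 ± 1.42 CPM in male KO and 24.6 ± 1.59 CPM in male WT (log2 fold change -0.80 ± 0.072, adjusted p = 1.60e-10 in edgeR), while the kinase gene Sgk1 fell by 0.35 ± 0.040. Egr1 and Egr2 thus had called changes of opposite sign within each sex, that of Egr1 in male cells with the limits given above.

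Of 11 partners that can dimerise with AP-1 proteins 8 could be tested, with 1 higher and 0 lower in female KO and 0 higher and 1 lower in male KO. At an unadjusted p below 0.05 these were 3 and 0 in female KO and 1 and 1 in male KO, and DESeq2 and limma-voom gave the counts of edgeR. The 12.5% that rose in female KO and the 12.5% that fell in male KO compare with 20.7% and 10.1% of all genes. Jdp2, a repressor of AP-1, averaged 33.7 ± 1.69 CPM in female KO and 29.8 ± 0.840 CPM in female WT (log2 fold change 0.17 ± 0.051). Of 21 upstream kinases and factors, 8 rose and 1 fell in female KO, and 1 rose and 1 fell in male KO. These were 38.1% and 4.76% in female KO, against 20.7% and 18.6% of all genes, and 4.76% each way in male KO, against 10.1% of all genes each way. Srf, the serum response factor that binds CArG boxes, averaged 106 ± 6.26 CPM in female KO and 78.3 ± 2.25 CPM in female WT (log2 fold change 0.43 ± 0.037), with an edgeR adjusted p of 5.90e-06 for the difference from the male effect. Mapk14, the p38 kinase, rose by 0.19 ± 0.035 in female KO and by 0.13 ± 0.037 in male KO. Map3k1 fell by 0.17 ± 0.054 in female KO and Map2k1 by 0.13 ± 0.032 in male KO.

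Feedback inhibitors of the pathway had 6 of 13 members higher and 1 lower in female KO, and 2 higher and 2 lower in male KO. The shares were 46.2% and 7.69% in female KO, against 20.7% and 18.6% of all genes, and 15.4% each way in male KO, close to the 10.1% of all genes. The receptor signalling inhibitor Spry4 averaged 21.9 ± 1.05 CPM in female KO and 13.2 ± 1.17 CPM in female WT (log2 fold change 0.73 ± 0.066). Nab1, a corepressor that binds EGR proteins, rose by 0.36 ± 0.044, and Spry1 fell by 0.21 ± 0.034. In male KO the phosphatase gene Dusp10 (0.39 ± 0.051) and Dusp7 (0.16 ± 0.035) rose, and Dusp4 (-0.20 ± 0.040) and Spred2 (-0.14 ± 0.041) fell. Of 23 tested genes known as targets of AP-1 or EGR factors, 15 rose and 5 fell in female KO, with a median of 0.29, and 5 rose and 6 fell in male KO, with a median of 0.02. In female KO these were 65.2% and 21.7%, the second near the 18.6% of all genes that fell, and in male KO they were 21.7% and 26.1%, against 10.1% of all genes each way. The gelatinase gene Mmp9 and the chemokine gene Ccl2 rose most in female KO (1.73 ± 0.054 and 1.31 ± 0.14), and Il6 (-0.47 ± 0.19) and Gdf15 (-0.35 ± 0.035) fell most. In male KO the cyclin gene Ccnd1 (0.49 ± 0.037) and Lif (0.22 ± 0.032) rose most, and Il6 (-0.93 ± 0.17) and the cytokine gene Il11 (-0.80 ± 0.046) fell most. These lists were written with earlier results of these data known and are described by count, not tested as sets.

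**Figure D4:**
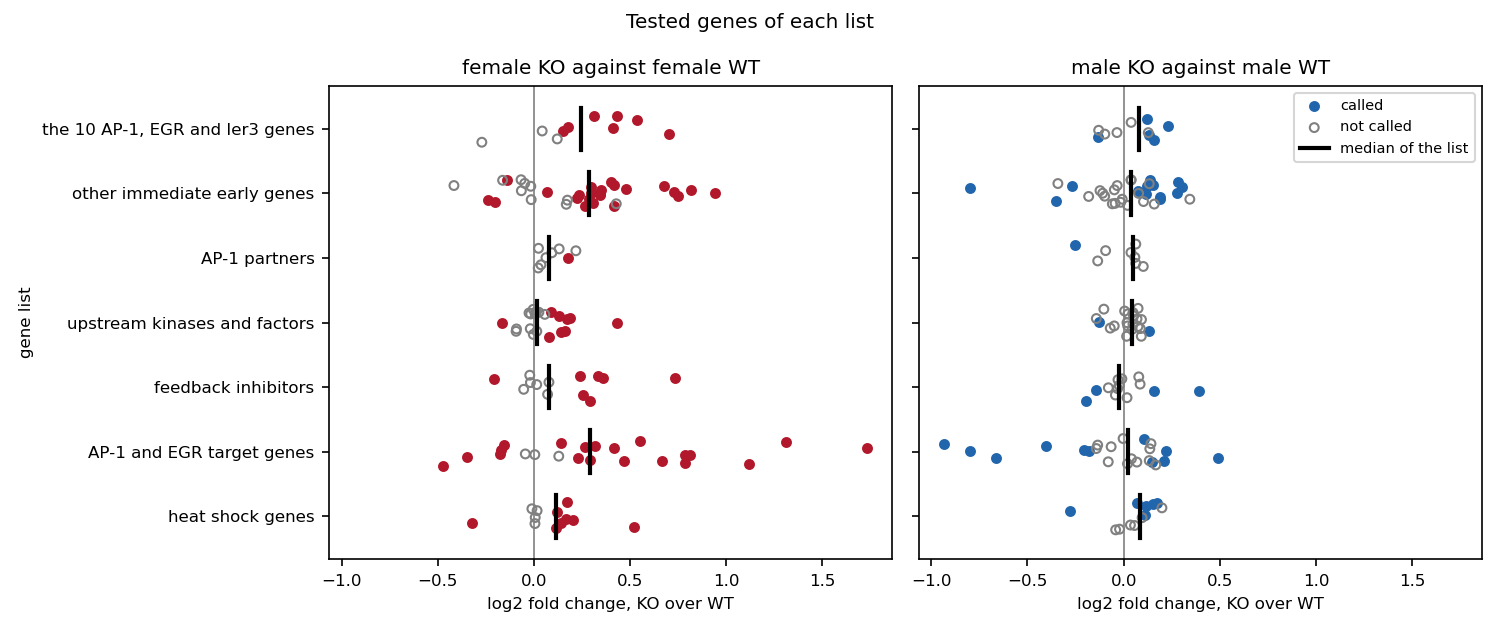
Log2 fold change of KO over WT (x axis) of each tested gene in 7 gene lists (y axis), in female cells (left) and male cells (right); filled points passed an edgeR adjusted p of 0.05 and black bars are list medians. The median of the target genes lies at 0.29 in female cells and 0.02 in male cells.

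Heat shock genes were read beside these results, since immediate early genes also respond to handling of cells. Of 12, 7 rose and 1 fell in female KO, with a median of 0.12, and 5 rose and 1 fell in male KO, with a median of 0.08. As shares these were 58.3% and 8.33% in female KO, against 20.7% and 18.6% of all genes, and 41.7% and 8.33% in male KO, against 10.1% each way. They summed to 0.327% to 0.344% of counts in female KO and 0.317% to 0.331% in female WT, and to 0.342% to 0.346% in male KO and 0.320% to 0.333% in male WT. Hspb1, a small heat shock protein gene, averaged 174 ± 22.6 CPM in female KO and 121 ± 3.68 CPM in female WT (log2 fold change 0.52 ± 0.074). Hspa1a, the classical inducible member, averaged 6.55 ± 0.263 CPM in female KO and 8.23 ± 0.953 CPM in female WT (log2 fold change -0.32 ± 0.098). Its near-identical copy Hspa1b, with which reads may be shared, averaged 39.6 ± 2.66 and 39.9 ± 0.818 CPM there, and 40.3 ± 2.40 CPM in male KO against 35.9 ± 1.97 CPM in male WT. Dnajb1 averaged 61.4 ± 3.37 CPM in female KO and 55.5 ± 1.07 CPM in female WT, and 57.8 ± 2.42 CPM in male KO and 56.5 ± 1.41 CPM in male WT. Over the 15 libraries, deviations of the heat shock sum from its group means correlated with those of Atf3 at a Pearson r of 0.62, Junb 0.52, Jund 0.32, Egr1 0.07, Jun 0.05, Fos 0.03, Fosl1 -0.16, Fosb -0.36, Ier3 -0.59 and Fosl2 -0.77, as a description of libraries split from 4 pools. The part of the heat shock genes in the changes of the 10 genes was not tested, and with 1 pool for each group, pool and genotype cannot be told apart.

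The 10 genes together took 0.143 ± 0.00604% of all counts in female KO and 0.133 ± 0.00211% in female WT, and 0.148 ± 0.00544% in male KO and 0.145 ± 0.00184% in male WT. Junb was the largest part of this sum. The per-library sums ran from 0.137% to 0.150% in female KO and from 0.130% to 0.135% in female WT without overlap, and from 0.142% to 0.152% in male KO and from 0.142% to 0.146% in male WT with overlap.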

How the data were processed

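The authors deposited raw counts per gene symbol for 15 libraries. STAR 2.6.1, featureCounts, edgeR 3.26.8, limma 3.40.6 and mm10 are named in the submitters' processing notes. Per the labels, the libraries were strand-specific and made from mRNA. The annotation and strand setting are not given in the sources used here. The 10 genes and the lists were chosen with earlier results of these data known.

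Counts were taken as deposited into edgeR 4.0.16 (R 4.3.3). DESeq2 1.42.0 and limma 3.58.1 served as alternatives. Low genes were removed with filterByExpr, at a count of 10 and a total of 15, libraries were scaled by TMM, and a single quasi-likelihood model held a mean for each of 4 groups. The common biological coefficient of variation was 3.59%. Calls use a Benjamini-Hochberg adjusted p below 0.05 over 13912 genes. CPM values are TMM-scaled. Values after ± are SDs for CPM and standard errors for log2 fold changes. A count of 3 is at most 0.170 CPM, and such floors cover counting error only. Data of 13800 genes were simulated with 67 genes changed 1.2-fold, 67 changed 1.5-fold and 66 changed 2-fold. The female comparison recovered 47.8% of 1.2-fold and 83.6% of 1.5-fold changes, and the male comparison 50.7% and 82.1%. Of the calls made there, 10% were false in the female and 7.78% in the male comparison. The changed share was far below the 39.3% (female) and 20.2% (male) called in the real data. These rates therefore need not hold for the real comparisons. Named genes were the 10, the 2 nearest in pattern to each, and up to 2 called genes with the largest fold in each direction from a list, with a mean of at least 1 CPM, plus Hspa1a, Hspa1b and Dnajb1. Some genes that this rule names are not reported here. Replicate numbers are not said to mark anything shared. Alternatives were other scalings, filters and tests, blocking on the replicate number, and the removal of single libraries. Positions are from GENCODE M21 on GRCm38.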

Additional observations from a re-analysis of the deposited data

Results flagged for a closer look

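The KO effect differed between female and male cells for 4 of the 10 genes by the interaction term of the edgeR fit. The female minus male difference was 0.832 for Fosl1, 0.38 for Ier3, 0.284 for Jun and 0.189 for Egr1 on the log2 scale. In 30 groups of 4 libraries, 2 held a library far from the other 3 by Dixon's criterion, and chance alone flags about 1 group in 20. Fosb in male WT library 2 was the lowest of its group, at 7.27 CPM where the others lay between 8.56 and 8.70 CPM, and its gap was 0.901 of the range. Ier3 in female KO library 4 was the highest of its group, at 265 CPM where the others lay between 251 and 252 CPM, with a gap of 0.918 of the range.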

How the results depend on the processing

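Each log2 fold change of the 10 genes was recomputed under 25 alternatives (24 for the difference between sexes). In all 5 comparisons together, 1173 values kept their direction and side of the threshold, 42 fell below the threshold, 14 passed it and 11 changed sign, each of these last from a value that had not been called. With library size as the only scaling, Junb in female WT against male WT was 0.00917, and the other sign changes came on leaving out a library. Over those removals Fos ran from -0.0316 to 0.119 in male KO against male WT and from -0.00191 to 0.149 in the difference of effects, where Junb ran from -0.00136 to 0.0735. In female KO against male KO, Jun ran from -0.00311 to 0.0978 and Junb from -0.0109 to 0.0641. In female WT against male WT, Junb ran from -0.0235 to 0.00151 and Jund from -0.0577 to 0.00536. In female KO, 7 of the 10 genes were higher under every alternative except glmTreat against a fold of 1.2, which left 2 (Fosl1 and Ier3). The count of members lower there went from 0 to 1 (Jund) with DESeq2 size factors, upper quartile scaling, library size only, a filter of 5 CPM in 3 libraries, DESeq2, limma-voom and the replicate block. With the block, 2 of the 10 were lower in female KO than in male KO, against 1, as with library size only, and Ier3 was called there (edgeR adjusted p = 0.00854). Under the block, AP-1 partners higher in female KO numbered 3, against 1, and genes called numbered 3105 higher and 2804 lower in female KO and 1566 and 1526 in male KO. Same-numbered libraries of KO and WT correlated between -0.0285 and 0.072 in their deviations. The WT library of the same number was the closest for male KO 1 and 3 and female KO 3 and 4. It was not the closest for male KO 2 or female KO 1 and 2. Whether the numbers mark anything shared was not tested.

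Tested against a fold of 1.2, female KO had 664 genes higher and 537 lower, with 126 and 325 in male KO, 362 and 115 in the difference of effects, 136 and 49 in female KO against male KO, and 250 and 580 in female WT against male WT. Members called were then 0 higher and 0 lower in male KO, 2 higher in the difference, 0 and 0 between the KO groups, and 0 higher and 2 lower between the WT groups. Library size only gave 1272 genes with a more negative effect in female cells, against 819, and 39.9% of called genes higher in female KO, against 52.7%. For the difference of effects it gave 46.3% more positive, against 62.4%, and between the WT groups 55.2% higher, against 44.1%.

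Leaving out each library in turn gave 2 to 4 members higher and 0 to 1 lower in male KO, 7 to 7 higher and 0 to 1 lower in female KO, 3 to 4 and 0 to 0 in the difference, 1 to 1 and 0 to 2 between the KO groups, and 0 to 1 and 6 to 6 between the WT groups. Genes higher and lower ran from 2550 to 2968 and 2293 to 2798 in female KO, 1010 to 1555 and 1041 to 1497 in male KO, 1132 to 1419 and 685 to 916 in the difference, 499 to 756 and 416 to 687 between the KO groups, and 1451 to 1933 and 1883 to 2207 between the WT groups. The summed share of the 10 genes had a higher mean in male KO than in male WT, and without Junb that difference was -2.84e-05 percentage points. The causes were not tested. Depth limits the rarest genes most: Fosb and Fos had 99 to 268 counts per library.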
